A study of Mus musculus with 38 samples.

Results

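A set of genes responded differently to stimulation in naive CD4+ T cells of mice with the miR-17∼92 microRNA cluster deleted and of wildtype mice. The difference between the 2 responses is described here gene by gene. The measure was taken on the log2 scale as the change between naive cells and cells stimulated for 24 h in T1792delta/delta mice, minus the same change in wt mice. A positive value means that the gene's response was more positive, or less negative, without the cluster. The comparison used 16 of the 38 RNA-seq libraries of the series, 4 for each genotype in each state, each read as the count of reads per gene. T1792delta/delta stands for CD4cre.miR-17∼92lox/lox, in which a Cre recombinase driven by Cd4 regulatory sequences removes the floxed cluster in T cells, and wt stands for wildtype mice. The naive cells were enriched with a kit from the lymph nodes and spleen, pooled within a mouse, so that each naive preparation came from a single mouse of either sex. For the stimulated state the cells spent 24 h on plastic coated with antibodies to CD3 (0.5 µg/ml) and CD28 (0.2 µg/ml), in medium holding 50 U/ml interleukin-2. Ages and strain backgrounds were not given for these groups. No group carried CD4cre alone: the other mice with CD4cre also carry a transgene of the cluster, so that in T1792delta/delta against wt the Cre, the mouse line and the deletion cannot be told apart.

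MicroRNAs are short RNAs that guide Argonaute proteins to matching sites, mostly in the 3′ untranslated regions (UTRs) of messenger RNAs, and lower the stability and translation of those messages. A microRNA reads its targets mainly through its seed, and a message with a perfect seed match tends to be more abundant when the microRNA is absent. The miR-17∼92 cluster is transcribed as one precursor, is switched on when T cells are activated, and is known for promoting their proliferation, survival and effector differentiation. The plates engage the T cell receptor complex and CD28, the receptor through which naive T cells take most of their costimulation.

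The 6 mature microRNAs of the deleted cluster are shown with their seed (bases 2 to 8) in capitals, because the seed is what groups them and what the target sites further on must match. They are RefSeq sequences, 5′ to 3′, and their precursors lie on the plus strand of chromosome 14 (GRCm38.p6), with miR-17-5p at chr14:115043684-115043706 and miR-92a-3p at chr14:115044476-115044496.
mmu-miR-17-5p: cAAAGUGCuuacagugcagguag
mmu-miR-20a-5p: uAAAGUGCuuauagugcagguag
mmu-miR-18a-5p: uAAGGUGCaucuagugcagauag
mmu-miR-19a-3p: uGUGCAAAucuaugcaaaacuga
mmu-miR-19b-3p: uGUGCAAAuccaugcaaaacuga
mmu-miR-92a-3p: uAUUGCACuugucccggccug
The pair miR-17-5p and miR-20a-5p share a seed, as do miR-19a-3p and miR-19b-3p, which leaves 4 seed families, and the seed of miR-18a-5p differs from that of miR-17-5p at a single base.

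Depth was similar across the compared groups, at 25671485 to 26774736 counts in T1792delta/delta 24 h libraries, 22605246 to 26471088 in wt 24 h libraries, 19427291 to 22458902 in T1792delta/delta naive libraries and 21129279 to 24624394 in wt naive libraries. Of the 4 libraries of a group, 2 were female in T1792delta/delta and 3 in wt, in both states, as read from sex-linked transcripts. The T cell marker Cd4 lay at 578 to 642 CPM (counts of the gene for each 1000000 counts of the library) in T1792delta/delta 24 h libraries and 438 to 600 CPM in wt 24 h libraries, and at 1110 to 1119 CPM in T1792delta/delta naive libraries and 847 to 1130 CPM in wt naive libraries. A list of 17 immediate early and heat shock genes summed to 22822 CPM in wt naive library 4, against 11815 to 13130 CPM in the other wt naive libraries and 10106 to 11852 CPM in T1792delta/delta naive libraries.

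The engineered locus was read first. The precursor gene Mir17 (chr14:115043671-115043754), the first hairpin of the cluster, was at 0 in all 4 T1792delta/delta 24 h libraries, against 0.113 to 0.156 CPM in wt 24 h libraries. In naive cells it was at 0, 0, 0.104 and 0.152 CPM in T1792delta/delta, against 0.206 to 0.441 CPM in wt. These values rest on a handful of reads and cover the hairpin only, since the libraries do not measure mature microRNAs. The host transcript Mir17hg, whose interval in the gene table (chr14:115044390-115046728) starts near the end of the cluster and runs on behind it, gave 162, 189, 167 and 170 CPM in T1792delta/delta 24 h libraries, against 23.0, 17.4, 20.5 and 21.9 CPM in wt 24 h libraries. In naive cells it gave 63.3, 56.6, 53.4 and 44.4 CPM in T1792delta/delta, against 41.1, 53.7, 53.9 and 57.8 CPM in wt. The genotypes did not overlap at 24 h and overlapped in naive cells, and the response was called in opposite directions, with a log2 fold change of 1.66 in T1792delta/delta and -1.32 in wt. The difference between the responses was 2.98 ± 0.18 (log2, ± standard error here and below; edgeR quasi-likelihood test with Benjamini-Hochberg adjustment, as for every adjusted p in the text; adjusted p = 1.33e-13).

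Other sequences also set the genotypes apart in both states. Gt(ROSA)26Sor, a non-coding RNA made at Rosa26, gave 10.6 to 11.2 CPM in T1792delta/delta 24 h libraries and 0 to 0.12 CPM in wt 24 h libraries, and 12.4 to 15.5 CPM in T1792delta/delta naive libraries and 0.0979 to 0.305 CPM in wt naive libraries. Gh, the growth hormone gene, averaged 4.07 ± 1.4 CPM in T1792delta/delta 24 h libraries and 0.0423 ± 0.049 CPM in wt 24 h libraries, and 34.8 ± 7.7 CPM in T1792delta/delta naive libraries and 0.147 ± 0.15 CPM in wt naive libraries (SD, n = 4 each). The responses of both genes were not called different between genotypes (adjusted p = 0.253 for Gt(ROSA)26Sor and 0.678 for Gh). What these transcripts mark in the T1792delta/delta line is not given in the labels, and their part in the results was not tested.

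Stimulation itself moved most of the transcriptome in both genotypes, with 11621 of 13650 tested genes called in T1792delta/delta (85.1%) and 11627 in wt (85.2%) at an adjusted p under 0.05. The difference between the responses was called for 833 genes (6.10%), of which 430 had a more positive response in T1792delta/delta (3.15%) and 403 a more negative one (2.95%). These shares are the background against which the counts of each gene group below are given. Most differences were of degree. The median size of a called difference was 0.52 on the log2 scale, and 36 genes reached a difference of at least 1 upward and 82 downward. The count rested in part on single libraries: it was 443 without T1792delta/delta 24 h library 1 and 467 without wt naive library 3. With female libraries alone, 2 in T1792delta/delta and 3 in wt for each state, it was 141. In that fit 57 of the called genes described below were looked up; all 57 kept their sign and 32 were not called. The calls that were lost included those of Tbx21 (adjusted p = 0.068), Eomes (0.071), Ifit1 (0.065), Lta (0.052), Rora (0.23), Scd2 (0.12), Phlpp1 (0.096), E2f1 (0.07), Abca1 (0.07) and Ago1 (0.056).

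Among the 430 genes with a more positive response, 189 fell in both genotypes, 121 rose in both and 20 rose in T1792delta/delta while falling in wt. Among the 403 with a more negative response, 172 rose in both genotypes, 122 fell in both and 16 fell in T1792delta/delta while rising in wt. The remaining genes had a called response in a single genotype. The genotypes differed at 24 h but not detectably in naive cells for 294 of the 430 genes (68.4%) and for 270 of the 403 genes (67.0%). Another 64 and 68 genes differed in naive cells alone, and 57 and 52 were called in neither state taken singly. Over all tested genes, naive cells differed between genotypes for 708 genes (5.19%) and 24 h cells for 2216 genes (16.2%). The naive count was 439 without T1792delta/delta naive library 3 and 469 without wt naive library 3, and the 24 h count was 1388 without T1792delta/delta 24 h library 1.

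**Figure D1:**
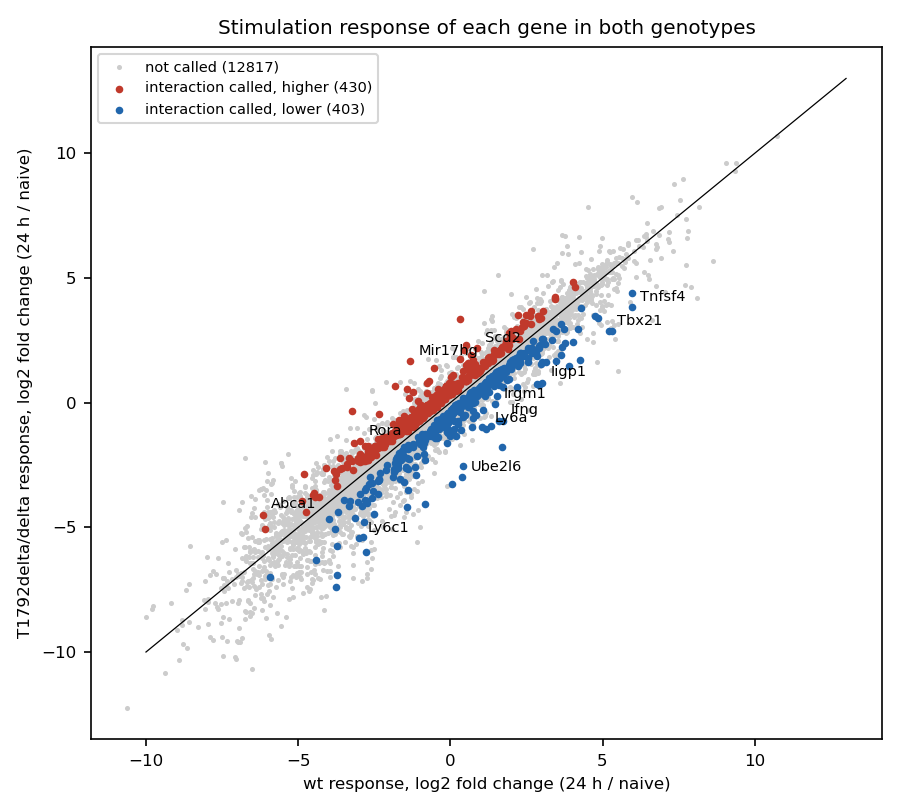
Log2 fold change of each of the 13650 tested genes between 24 h and naive cells, in T1792delta/delta (vertical axis) against wt (horizontal axis), with the line of equal response in black. Red points are the 430 genes with a more positive response in T1792delta/delta and blue points the 403 with a more negative one; Tbx21, Ifng and Irgm1 lie below the line and Mir17hg, Rora and Scd2 above it.

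**Figure D2:**
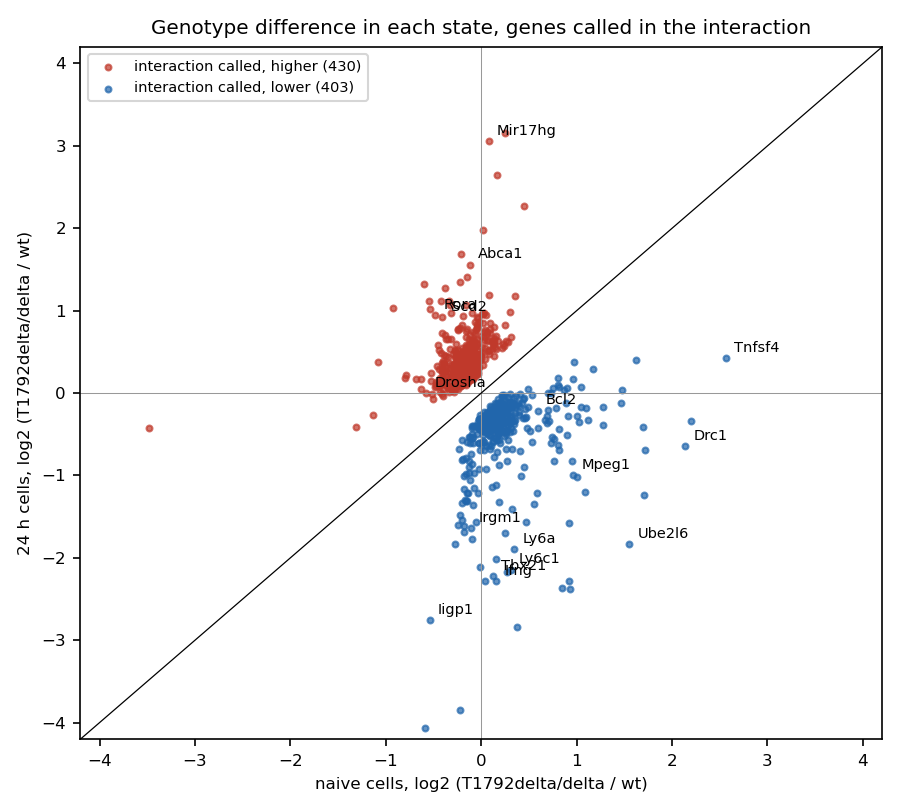
The 833 called genes by the log2 ratio of T1792delta/delta over wt in 24 h cells (vertical axis) and in naive cells (horizontal axis). Points near the vertical zero line, such as Tbx21 and Abca1, differed after stimulation, while Drc1 and Tnfsf4 at the right differed in naive cells and Drosha lies near the horizontal zero line at the left of the origin.

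The genes whose response was most reduced without the cluster included the interferon-gamma axis of the T helper 1 programme. Tbx21 (chr11:97098007-97115331) encodes T-bet, the transcription factor that drives T helper 1 differentiation. It reached 13.9, 29.3, 33.3 and 23.6 CPM in T1792delta/delta 24 h libraries, against 109, 143, 114 and 101 CPM in wt 24 h libraries. All 4 T1792delta/delta values lay below all 4 wt values. In naive cells Tbx21 was near its floor in both, at 3.13, 4.53, 4.83 and 1.22 CPM in T1792delta/delta and 2.74, 3.51, 3.18 and 3.20 CPM in wt. Its response was positive in both genotypes, at 2.86 in T1792delta/delta and 5.20 in wt on the log2 scale, and differed by -2.34 ± 0.40 (adjusted p = 0.000368).

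Ifng (chr10:118441046-118445894), the signature cytokine of T helper 1 cells, gave 0.776, 3.66, 2.87 and 2.62 CPM in T1792delta/delta 24 h libraries, against 8.90, 20.9, 10.6 and 8.02 CPM in wt 24 h libraries. In naive cells it gave 3.08, 5.59, 4.73 and 3.0 CPM in T1792delta/delta and 2.74, 3.92, 3.64 and 4.42 CPM in wt. The 24 h groups were separate and the naive groups overlapped, and the difference of the responses was -2.44 ± 0.56 (adjusted p = 0.0075). Il12rb2, the inducible chain of the interleukin-12 receptor, averaged 6.72 ± 2.58 CPM in T1792delta/delta 24 h cells and 20 ± 5.86 CPM in wt 24 h cells (SD, n = 4 each), with a difference of -1.52 ± 0.34 (adjusted p = 0.00611). Eomes, the T-box relative of T-bet, was at 1.70 to 3.14 CPM in T1792delta/delta 24 h libraries and 5.07 to 9.79 CPM in wt 24 h libraries, and fell with stimulation by 1.62 on the log2 scale in T1792delta/delta against a change of -0.12 in wt. Tbkbp1, an adaptor of the kinase TBK1 and the gene next to Tbx21 on chromosome 11, averaged 8.75 ± 3.16 CPM in T1792delta/delta 24 h cells and 39.3 ± 5.72 CPM in wt 24 h cells, with a difference of -2.43 ± 0.40 (adjusted p = 0.000263).

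Irf8, an interferon-induced transcription factor, showed the same order at higher levels. It gave 89.2, 228, 161 and 132 CPM in T1792delta/delta 24 h libraries, against 344, 499, 405 and 371 CPM in wt 24 h libraries, and averaged 40.1 ± 9.05 CPM in T1792delta/delta naive cells and 32.2 ± 5.39 CPM in wt naive cells. Its response differed by -1.72 ± 0.29 (adjusted p = 0.000293). Across 21 tested genes of helper lineages, 5 had a more negative response (Ifng, Tbx21, Il12rb2, Maf and Il4ra) and 2 a more positive one (Rora and Stat6), with a median difference of -0.37 against 0.0016 over all tested genes. The positive count was 1 in 9 of the 16 fits that left out a library. Maf and Il4ra belong to the T helper 2 side, and their differences were -1.27 and -0.59. Gata3, the T helper 2 regulator, and Cxcr3, a T helper 1 chemokine receptor, had differences of -0.37 and -0.47 that were not called.

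Interferon-stimulated genes formed the list with the most negative calls. Of 37 tested members, 13 had a more negative response in T1792delta/delta and 0 a more positive one, against 2.95% and 3.15% of all genes, and the list's median difference was -0.75. With naive and 24 h libraries of the same number tied within genotype the count was 14, and it was 9 without T1792delta/delta 24 h library 1. The members described here took different courses, and no part of the list was tested against another. Guanylate-binding proteins and immunity-related GTPases are classic interferon-gamma products that defend cells against intracellular pathogens. Irgm1, an immunity-related GTPase (chr11:48865245-48871420) gave 64.6, 120, 110 and 92.6 CPM in T1792delta/delta 24 h libraries, against 281, 359, 288 and 281 CPM in wt 24 h libraries, and 110, 121, 82.0 and 88.1 CPM in T1792delta/delta naive libraries, against 99.4, 118, 99.8 and 116 CPM in wt naive libraries. Its level at 24 h was thus close to the naive level in T1792delta/delta, with a response of -0.05, whereas the wt response was 1.48, and the responses differed by -1.53 ± 0.22 (adjusted p = 5.4e-05).

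Gbp2, a guanylate-binding protein, gave 156, 301, 223 and 197 CPM in T1792delta/delta 24 h libraries, against 649, 827, 570 and 603 CPM in wt 24 h libraries. Naive levels were 69.8 ± 13.8 CPM in T1792delta/delta and 83.0 ± 9.67 CPM in wt, so that the gene rose in both genotypes and less without the cluster, by -1.35 ± 0.22 (adjusted p = 0.000234). Iigp1, another immunity-related GTPase, reached 23.2, 47.3, 31.8 and 26 CPM in T1792delta/delta 24 h libraries, against 203, 271, 189 and 207 CPM in wt 24 h libraries, with a difference of -2.22 ± 0.35 (adjusted p = 0.000166). Igtp averaged 198 ± 62 CPM in T1792delta/delta 24 h cells and 555 ± 44 CPM in wt 24 h cells, and its difference was -1.26 ± 0.21. Tgtp1 and Tgtp2, which are near-identical copies whose reads may be shared, had differences of -1.44 and -1.34.

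Ifit1 and Ifit3, antiviral members of the list, were most abundant in naive cells. Ifit1, which binds foreign RNA caps, gave 0.776, 1.56, 0.918 and 0.898 CPM in T1792delta/delta 24 h libraries, against 3.47, 3.02, 2.46 and 3.61 CPM in wt 24 h libraries, and 56.2, 49.7, 26.8 and 41.3 CPM in T1792delta/delta naive libraries, against 14.5, 24.4, 27.3 and 25.5 CPM in wt naive libraries. It fell steeply with stimulation in both genotypes, and its difference of -2.50 ± 0.43 (adjusted p = 0.000393) combined a higher mean in naive T1792delta/delta cells with a lower level at 24 h. Ifit3, whose reads may be shared with its copy Ifit3b, averaged 43.0 ± 14 CPM in T1792delta/delta naive cells and 21.5 ± 6.4 CPM in wt naive cells. In naive cells 5 of the 37 members were called higher in T1792delta/delta (Ifit1, Ifit3, Isg20, Rsad2 and Cmpk2), against 2.76% of all genes, and 0 lower, against 2.42%. At 24 h 13 were called lower, against 8.47% of all genes, and 0 higher. Ube2l6, the enzyme that attaches the interferon-induced modifier ISG15, lay outside the list and had one of the most negative differences, -3.39 ± 0.46 (adjusted p = 3.5e-05), with 1.93 ± 0.339 CPM in T1792delta/delta 24 h cells and 6.88 ± 2.19 CPM in wt 24 h cells, and 15.4 ± 9.62 CPM in T1792delta/delta naive cells and 5.25 ± 1.07 CPM in wt naive cells.

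The Ly6 surface proteins, which interferon also induces in T cells, were reduced as well. Ly6a, known as Sca-1, gave 28.4, 92.8, 63.3 and 39.9 CPM in T1792delta/delta 24 h libraries, against 174, 272, 176 and 211 CPM in wt 24 h libraries. In naive cells it gave 108 to 124 CPM in T1792delta/delta and 73.5 to 117 CPM in wt. The gene therefore fell on stimulation in T1792delta/delta, with a log2 response of -1.05, and rose in wt, with 1.19, a difference of -2.23 ± 0.33 (adjusted p = 6.95e-05). Ly6c1 fell in both genotypes, to 2.50 ± 1.28 CPM in T1792delta/delta 24 h cells and 11.1 ± 2.98 CPM in wt 24 h cells, and its difference was -2.45 ± 0.31 (adjusted p = 9.52e-06); reads of Ly6c1 and its copy Ly6c2 may be shared.

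Summed markers of other cell types differed in both directions at 24 h. The summed level of 12 markers of natural killer and CD8 cells was 48.1 to 92.8 CPM in T1792delta/delta 24 h libraries and 76.6 to 134 CPM in wt 24 h libraries, and that of 16 myeloid markers was 45.0 to 57.7 CPM in T1792delta/delta 24 h libraries and 57.4 to 72.8 CPM in wt 24 h libraries. The most abundant member was Gzmb in the first list, at 19.5 to 46.9 CPM in T1792delta/delta 24 h libraries and 36.8 to 79.9 CPM in wt 24 h libraries, and Ctss in the second, at 37.7 to 48.1 CPM in T1792delta/delta and 49.9 to 65.2 CPM in wt. Cd8b1, a chain of the CD8 receptor, lay at 10.6 to 16.2 CPM in T1792delta/delta 24 h libraries and 9.26 to 11.5 CPM in wt 24 h libraries. The sum of 12 regulatory T cell markers was 1221 to 1401 CPM in T1792delta/delta 24 h libraries and 1483 to 1531 CPM in wt 24 h libraries, without overlap. Foxp3 of that list overlapped, at 7.46 to 10.98 CPM in T1792delta/delta and 8.23 to 10.34 CPM in wt. Tnfrsf4 also overlapped, at 410 to 486 CPM in T1792delta/delta and 390 to 430 CPM in wt. Of the members, only Il2ra, Gpr83 and Lrrc32 did not overlap, all lower in T1792delta/delta. Il2ra lay at 371 to 418 CPM in T1792delta/delta 24 h libraries and 624 to 655 CPM in wt 24 h libraries. Red cell genes went the other way, at 11.7 to 89.2 CPM in T1792delta/delta 24 h libraries and 5.03 to 7.02 CPM in wt 24 h libraries, and B cell markers overlapped, at 93.9 to 297 CPM in T1792delta/delta and 102 to 245 CPM in wt. Of the natural killer and CD8 list, 2 of 12 members had a more negative response, Gzmb (-1.59, not called without T1792delta/delta naive library 2) and Eomes (-1.50), which activated CD4 T cells also express. Klrd1 and Prf1 of the same list had differences of 0.18 and 0.26 that were not called. Fewer cells of a type and less RNA per cell cannot be told apart in such bulk samples, and the part of these cells in the result was not tested.

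**Figure D3:**
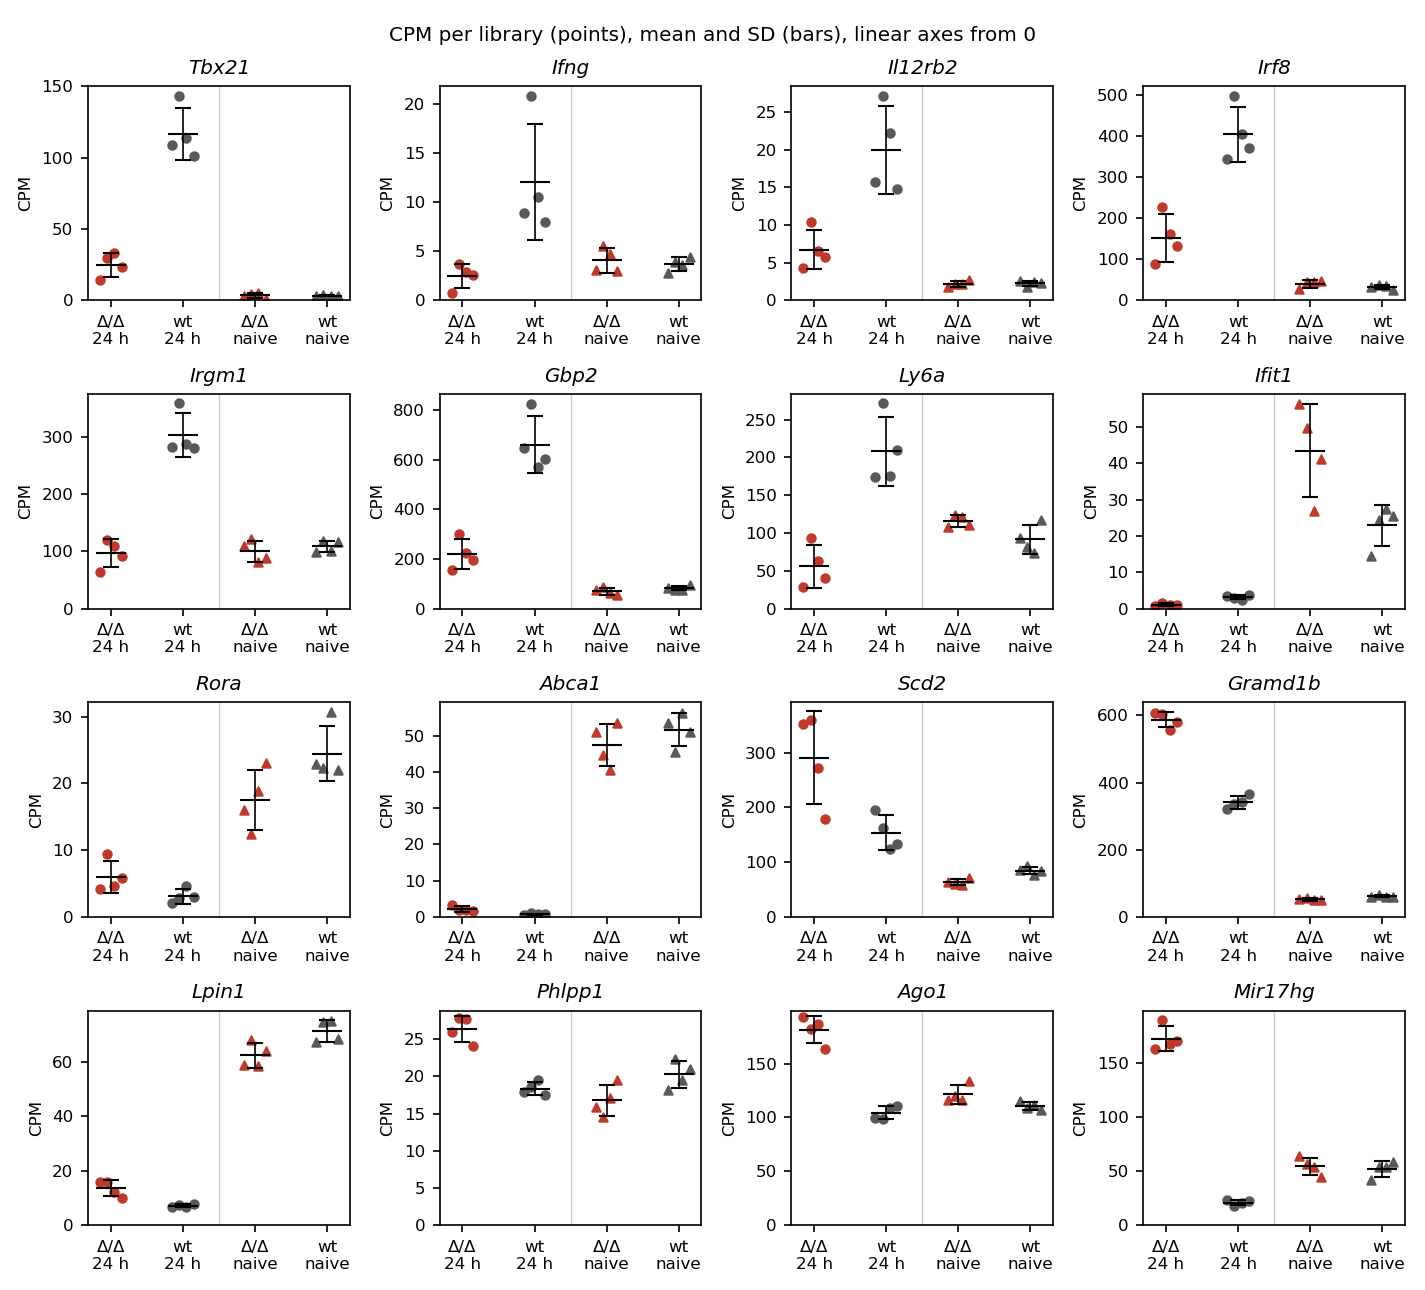
CPM of 16 genes in each library, with the mean and SD of 4 libraries per group; within each state T1792delta/delta (red) stands left of wt (grey), with 24 h libraries as circles and naive libraries as triangles. The 24 h groups of Tbx21, Ifng, Irgm1 and Gbp2 do not overlap and are lower in T1792delta/delta, those of Gramd1b, Ago1 and Phlpp1 do not overlap and are higher, and Ifit1 is highest in naive cells.

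Cytokine genes were reduced where they were called. Of 31 tested cytokine and chemokine genes, 6 had a more negative response in T1792delta/delta (Ifng, Lta, Ltb, Ccl3, Ccl4 and Osm) and 0 a more positive one, with a list median of -0.25. The count was 3 without T1792delta/delta naive library 2 and 3 without wt 24 h library 4. Lta, which encodes lymphotoxin alpha, gave 40.3, 35.8, 55.6 and 64.4 CPM in T1792delta/delta 24 h libraries, against 88.3, 113, 102 and 106 CPM in wt 24 h libraries. Naive levels were 15.8 ± 0.509 CPM in T1792delta/delta and 17.2 ± 0.227 CPM in wt, so that the difference of -0.94 ± 0.18 (adjusted p = 0.00131) lay in the 24 h levels. Ltb, its partner chain, averaged 37.1 ± 3.8 CPM in T1792delta/delta 24 h cells and 56.3 ± 7.18 CPM in wt 24 h cells, with a difference of -0.58 (adjusted p = 0.0177) that was not called without T1792delta/delta 24 h library 1, wt 24 h library 4 or wt naive library 3. The chemokine Ccl3 had a difference of -1.43 ± 0.38 (adjusted p = 0.0201), which was not called without T1792delta/delta naive library 2. Il2, the growth factor that CD28 costimulation boosts, had a difference of 0.20 that was not called (adjusted p = 0.92).

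Genes of interleukin-2 receptor signalling, which the cytokine in the medium engages through JAK and STAT5 proteins, had calls in both directions. Of 14 tested members, 3 were more negative (Pim1, Pim2 and Socs1) and 2 more positive (Jak1 and Jak3), with a median of -0.38. Pim2 (chrX:7878306-7883432), a survival kinase induced by STAT5, gave 262, 327, 301 and 263 CPM in T1792delta/delta 24 h libraries, against 507, 478, 510 and 522 CPM in wt 24 h libraries, and its difference was -0.60 ± 0.11 (adjusted p = 0.00113). Pim1, its relative, gave 83.5, 98.5, 105 and 82.8 CPM in T1792delta/delta 24 h libraries, against 142, 138, 143 and 134 CPM in wt 24 h libraries, and 602, 598, 473 and 527 CPM in T1792delta/delta naive libraries, against 347, 459, 363 and 356 CPM in wt naive libraries. Pim1 thus started higher and ended lower in T1792delta/delta, with both state differences called and a response difference of -1.12 ± 0.14 (adjusted p = 9.52e-06). Socs1, a feedback inhibitor of JAK kinases, averaged 14.9 ± 3.9 CPM in T1792delta/delta 24 h cells and 29 ± 3.5 CPM in wt 24 h cells, a response difference of -0.84 ± 0.24 (adjusted p = 0.0301). Jak3 and Jak1 had differences of 0.44 and 0.37. Jak3 lay at 166 ± 15.7 CPM in T1792delta/delta 24 h cells and 165 ± 11.4 CPM in wt 24 h cells, and at 145 ± 10.9 CPM in T1792delta/delta naive cells and 195 ± 8.79 CPM in wt naive cells, and its call was lost without wt 24 h library 4. The negative count was 5 without T1792delta/delta 24 h library 3 or T1792delta/delta naive library 2.

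For a further set of genes with negative differences the transcript was more abundant in naive cells without the cluster. Bcl2 (chr1:106538176-106714290), the survival factor of naive T cells, gave 249, 240, 254 and 322 CPM in T1792delta/delta naive libraries, against 190, 167, 168 and 182 CPM in wt naive libraries. At 24 h it gave 54.1, 61.8, 56.1 and 54.1 CPM in T1792delta/delta, against 65.3, 59.8, 67.0 and 69.8 CPM in wt. The naive groups were separate and the 24 h groups overlapped, and the difference of the responses was -0.80 ± 0.11 (adjusted p = 5.4e-05). Il7r, the interleukin-7 receptor that keeps naive T cells alive, fell to 6.06 ± 2.02 CPM in T1792delta/delta 24 h cells and 7.67 ± 0.398 CPM in wt 24 h cells, with naive levels of 769 ± 75.1 CPM in T1792delta/delta and 470 ± 60.4 CPM in wt, and differed by -1.05 ± 0.27 (adjusted p = 0.0159).

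Tnfsf4, which encodes the costimulatory ligand OX40L, gave 1.07, 1.14, 0.988 and 1.17 CPM in T1792delta/delta naive libraries, against 0.0979, 0.371, 0.0837 and 0.153 CPM in wt naive libraries. At 24 h it gave 16.2, 11.3, 15 and 19.5 CPM in T1792delta/delta, against 10.4, 11, 12.2 and 12.4 CPM in wt. The rise was shallower without the cluster, by -2.14 ± 0.38 (adjusted p = 0.000599), with a higher naive level, and the naive wt values rest on few reads. Drc1, a component of the motile cilium, averaged 14.9 ± 4.41 CPM in T1792delta/delta naive cells and 3.41 ± 1.10 CPM in wt naive cells, and its 24 h levels of 0.816 ± 0.328 CPM in T1792delta/delta and 1.28 ± 0.432 CPM in wt were not called different; its response differed by -2.78 ± 0.41 (adjusted p = 6.95e-05). Mpeg1, a pore-forming protein of macrophages, gave 35.3 to 63.2 CPM in T1792delta/delta naive libraries and 20.5 to 25.8 CPM in wt naive libraries. At 24 h it averaged 2.09 ± 0.662 CPM in T1792delta/delta and 4.14 ± 1.98 CPM in wt, so that the genotypes were called different in both states, by 0.96 in naive cells and -1.0 at 24 h on the log2 scale, and the responses differed by -1.96 ± 0.39 (adjusted p = 0.00174).

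Mpeg1 was the only one of the 16 myeloid markers with a called difference of the responses. In naive cells 4 of the 16 were called higher in T1792delta/delta and 0 lower, against 2.76% and 2.42% of all genes. At 24 h 2 were called lower and 0 higher, against 8.47% and 7.77%. The list's sum was 495 to 624 CPM in T1792delta/delta naive libraries and 418 to 500 CPM in wt naive libraries. The sum of 6 red cell genes was 1193 to 5258 CPM in T1792delta/delta naive libraries and 328 to 982 CPM in wt naive libraries, and that of 16 memory T cell markers was 957 to 1038 CPM in T1792delta/delta naive libraries and 739 to 824 CPM in wt naive libraries. Of the memory markers 4 were called higher in naive T1792delta/delta cells and 0 lower. B cell markers overlapped, at 505 to 2014 CPM in T1792delta/delta naive libraries and 655 to 1190 CPM in wt naive libraries. The part of such cells in the naive differences was not tested.

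The genes whose response was more positive without the cluster included carriers and enzymes of lipids (Gramd1b, Abca1, Lpin1 and Scd2) and genes with seed matches. Sites that match the seeds are shown for 6 of the called genes, as 30 bases of the 3′ UTR that end with the match in capitals (the complement of seed bases 2 to 8 followed by an A, called an 8mer site), because these genes are described next. Coordinates are GRCm38 on the strand given, and the sites were found by letter match in GENCODE transcripts, which describes the sequence and not binding.
Abca1, miR-17/20a match, chr4:53031005-53031034, minus strand: ttatcattggccctcattccaaGCACTTTA
Rora, miR-19 match, chr9:69379381-69379410, plus strand: atggcgggagttgcggcgttacTTTGCACA
Jazf1, miR-19 match, chr6:52770020-52770049, minus strand: ttgtagttaatgattttgtacaTTTGCACA
Gramd1b, miR-92a match, chr9:40297949-40297978, minus strand: caggggtggctacaagaggcctGTGCAATA
Lpin1, miR-92a match, chr12:16538116-16538145, minus strand: tctgctccagcaattagttaatGTGCAATA
Srebf1, miR-18a match, chr11:60199763-60199792, minus strand: atggcaccctcttgctctgtagGCACCTTA
The capitals are the same within a family and differ between families.

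Gramd1b, a carrier of cholesterol between the plasma membrane and the endoplasmic reticulum, had the smallest adjusted p of the protein-coding genes with a more positive response. It gave 608, 603, 558 and 582 CPM in T1792delta/delta 24 h libraries, against 320, 337, 343 and 366 CPM in wt 24 h libraries, and 53.2, 57.4, 48.6 and 48.6 CPM in T1792delta/delta naive libraries, against 59.6, 64.7, 60.2 and 58.5 CPM in wt naive libraries. The 24 h groups lay far apart, the naive groups lay in the opposite order without a called difference, and the responses differed by 1.01 ± 0.12 (adjusted p = 2.01e-06). Its UTR of 4757 bases holds 1 8mer site each for miR-19 and miR-92a.

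Lpin1, a phosphatase that makes diacylglycerol for lipid synthesis, fell with stimulation in both genotypes. It gave 15.9, 15.9, 12.1 and 10.1 CPM in T1792delta/delta 24 h libraries, against 6.54, 7.41, 6.55 and 7.82 CPM in wt 24 h libraries, and averaged 62.4 ± 4.54 CPM in T1792delta/delta naive cells and 71.4 ± 3.94 CPM in wt naive cells. The fall was shallower without the cluster, by 1.12 ± 0.16 (adjusted p = 5.25e-05). Abca1, which exports cholesterol from cells, also fell steeply, to 3.21, 1.78, 1.88 and 1.57 CPM in T1792delta/delta 24 h libraries, against 0.623, 0.907, 0.663 and 0.641 CPM in wt 24 h libraries, and averaged 47.4 ± 5.92 CPM in T1792delta/delta naive cells and 51.6 ± 4.57 CPM in wt naive cells. The 24 h groups did not overlap and the responses differed by 1.68 ± 0.36 (adjusted p = 0.0035). Jazf1, a nuclear cofactor, averaged 7.54 ± 0.659 CPM in T1792delta/delta 24 h cells and 3.47 ± 0.382 CPM in wt 24 h cells and differed by 1.45 ± 0.26 (adjusted p = 0.000582).

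Rora encodes the nuclear receptor ROR-alpha and is a published target of the cluster in follicular helper T cells. It gave 4.17, 9.41, 4.59 and 5.80 CPM in T1792delta/delta 24 h libraries, against 2.0, 2.80, 4.68 and 2.93 CPM in wt 24 h libraries, and 16, 12.4, 18.8 and 23.0 CPM in T1792delta/delta naive libraries, against 22.9, 22.3, 30.7 and 22 CPM in wt naive libraries. The groups overlapped in both states, and the response differed by 1.43 ± 0.35 (adjusted p = 0.0127). Its UTR of 9285 bases is long and holds sites of all 4 families. Syne2, a nuclear envelope spectrin-repeat protein with no 7mer site in its UTR, averaged 14.5 ± 1.5 CPM in T1792delta/delta 24 h cells and 7.42 ± 0.811 CPM in wt 24 h cells, with a difference of 1.07 ± 0.15 (adjusted p = 3.5e-05). Igfbp7, a secreted binding protein of insulin-like growth factors, also without a site, rose in T1792delta/delta and fell in wt, and differed by 1.92 ± 0.36 (adjusted p = 0.000909).

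Some of the largest positive values came from a single library. P4ha2, a collagen prolyl hydroxylase, gave 2.95, 20.4, 2.64 and 2.36 CPM in T1792delta/delta 24 h libraries, against 1.74, 1.85, 1.95 and 1.64 CPM in wt 24 h libraries. Its difference of 1.96 ± 0.58 (adjusted p = 0.0374) was 0.54 and not called without T1792delta/delta 24 h library 2. Nor was it called with same-numbered libraries tied within genotype (adjusted p = 0.119). Ppp1r3b, a subunit that directs a phosphatase to glycogen, gave 5.36, 22.3, 3.87 and 3.70 CPM in T1792delta/delta 24 h libraries, against 2.49, 2.61, 2.85 and 3.05 CPM in wt 24 h libraries, with a difference of 1.89 ± 0.44 (adjusted p = 0.00744) that was 0.86 without library 2 (adjusted p = 0.00565). Igsf3 gave 4.62, 13.1, 6.96 and 4.64 CPM in T1792delta/delta 24 h libraries, against 3.20, 2.91, 3.86 and 2.85 CPM in wt 24 h libraries, and Klf4, a quiescence factor, 1.55, 3.41, 1.45 and 1.42 CPM in T1792delta/delta 24 h libraries, against 1.11, 1.44, 0.936 and 0.962 CPM in wt 24 h libraries. Library 2 was the highest T1792delta/delta 24 h library for all 4 of these genes, and the calls of Igsf3 (1.11, adjusted p = 0.0434) and Klf4 (1.03, adjusted p = 0.0404) were lost without it, at 0.67 for Igsf3 and 0.61 for Klf4. Leaving out 1 of the 16 libraries ended the call of P4ha2, Igsf3 and Zdhhc2 in 10 fits each and that of Klf4 in 9. With tied libraries the adjusted p was 0.081 for Igsf3 and 0.053 for the palmitoyltransferase gene Zdhhc2 (1.29, adjusted p = 0.0407). The call of Arhgap20 (1.39, adjusted p = 0.037) was lost in 9 of the 16 fits that left out a library.

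Of 37 tested genes published elsewhere as targets of the cluster, 6 had a more positive response (Rora, Phlpp1, E2f1, Nfatc2ip, Tgfbr2 and Itch) and 2 a more negative one (Bcl2 and Socs1), with a list median of 0.24. The positive count was 3 without T1792delta/delta 24 h library 1, T1792delta/delta naive library 3 or wt 24 h library 3, and 0 with female libraries alone; the negative count was 1 in 5 of the 16 fits that left out a library. Phlpp1, the phosphatase that removes an activating phosphate from AKT, gave 26, 27.8, 27.7 and 24.1 CPM in T1792delta/delta 24 h libraries, against 17.9, 18.6, 19.5 and 17.5 CPM in wt 24 h libraries. In naive cells the order was reversed in the means, at 16.8 ± 2.11 CPM in T1792delta/delta and 20.3 ± 1.77 CPM in wt, and the responses differed by 0.80 ± 0.15 (adjusted p = 0.00114). E2f1, the cell cycle transcription factor that miR-17 and miR-20a are known to repress, gave 124, 127, 129 and 122 CPM in T1792delta/delta 24 h libraries, against 99.7, 100, 99.9 and 84.3 CPM in wt 24 h libraries, a response difference of 0.56 ± 0.13 (adjusted p = 0.0108).

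Tgfbr2, a receptor chain for transforming growth factor beta, averaged 84.2 ± 3.68 CPM in T1792delta/delta 24 h cells and 54.1 ± 3.38 CPM in wt 24 h cells, and 849 ± 41.8 CPM in T1792delta/delta naive cells and 711 ± 37.7 CPM in wt naive cells. It was higher without the cluster in both states, so that the response difference was small, at 0.38 ± 0.11 (adjusted p = 0.0349, and 0.065 with tied libraries), and the call was lost in 10 of the 16 fits that left out a library. Bcl2l11, which encodes the death factor BIM, averaged 120 ± 1.9 CPM in T1792delta/delta 24 h cells and 79.1 ± 6.6 CPM in wt 24 h cells, and its response difference of 0.38 ± 0.14 was not called (adjusted p = 0.0908). Of 21 tested brakes of PI3K signalling, 2 were called more positive, Phlpp1 and Inpp4a, and 0 more negative, with a median of 0.24; in 9 of the 16 fits that left out a library 1 was called.

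Sterol and fatty acid synthesis genes were more positive where called. Of 29 tested members, 4 had a more positive response (Scd2, Srebf1, Stard4 and Dhcr7) and 0 a more negative one, and the list median was 0.091. Scd2, a desaturase that makes monounsaturated fatty acids, gave 353, 360, 273 and 179 CPM in T1792delta/delta 24 h libraries, against 195, 162, 124 and 134 CPM in wt 24 h libraries. Naive levels were 63.5 ± 5.98 CPM in T1792delta/delta and 84.3 ± 6.32 CPM in wt, and the gene rose in both genotypes, more so without the cluster, by 1.33 ± 0.21 (adjusted p = 0.000163). Srebf1, the transcription factor of lipid synthesis, gave 122, 103, 125 and 104 CPM in T1792delta/delta 24 h libraries, against 82.3, 79.5, 79.9 and 83.8 CPM in wt 24 h libraries. It rose on stimulation in T1792delta/delta and fell in wt, with responses of 0.22 and -0.33 on the log2 scale, and differed by 0.55 ± 0.09 (adjusted p = 0.000334). Stard4, a cytosolic cholesterol carrier, and Dhcr7, the last enzyme of cholesterol synthesis, differed by 0.48 and 0.45, and the call of Stard4 was lost without T1792delta/delta 24 h library 1 or T1792delta/delta naive library 3. At 24 h itself, 14 of the 29 members were called higher in T1792delta/delta, against 7.77% of all genes, and 0 lower; in naive cells 3 were called higher, against 2.76% of all genes.

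Some genes of the machinery that makes and uses microRNAs also had a more positive response. Of 18 tested members, 3 were called (Ago1, Drosha and Cnot1), all more positive, with a median of 0.22, and the count was 5 without T1792delta/delta 24 h library 2. Ago1, an Argonaute protein, gave 194, 182, 187 and 164 CPM in T1792delta/delta 24 h libraries, against 99.6, 98.9, 109 and 110 CPM in wt 24 h libraries, with naive levels of 122 ± 8.64 CPM in T1792delta/delta and 111 ± 3.31 CPM in wt. Its response differed by 0.66 ± 0.11 (adjusted p = 0.000368). Drosha, the nuclease that cuts hairpins from primary transcripts, reached the difference from the naive side. It gave 47.0, 47.3, 43.1 and 45.9 CPM in T1792delta/delta naive libraries, against 68.6, 67.3, 63.3 and 74.2 CPM in wt naive libraries, and averaged 143 ± 14.3 CPM in T1792delta/delta 24 h cells and 143 ± 11.1 CPM in wt 24 h cells. The naive groups were separate, the 24 h groups had the same mean, and the response differed by 0.58 ± 0.10 (adjusted p = 0.000579). Cnot1, the scaffold of the deadenylase that shortens targeted messages, differed by 0.48 ± 0.13 (adjusted p = 0.0218), a call lost without T1792delta/delta 24 h library 1 or wt 24 h library 4.

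Activation transcription factors went both ways, with 3 of 26 more positive (Fosl2, Egr2 and Nr4a1) and 4 more negative (Tbx21, Irf8, Eomes and Batf3). Nr4a1, a nuclear receptor induced by T cell receptor signals, averaged 979 ± 97.4 CPM in T1792delta/delta naive cells and 1280 ± 99.9 CPM in wt naive cells, and 209 ± 30.7 CPM in T1792delta/delta 24 h cells and 176 ± 12.8 CPM in wt 24 h cells, so that its fall was shallower by 0.63 ± 0.14 (adjusted p = 0.00483). Egr2, another receptor-induced factor, was also lower in naive T1792delta/delta cells, at 22.3 ± 3.8 CPM, against 48.9 ± 8.6 CPM in wt naive cells. Of the 17 immediate early and heat shock genes summed above, 6 were called lower in naive T1792delta/delta cells, against 2.42% of all genes, and 1 higher, with a naive median of -0.29. Their response differences had a median of 0.50, with 0 called more positive and 2 more negative. The part of such genes in the values of Nr4a1 and Egr2 was not tested, and the difference of Nr4a1 was 0.66 without wt naive library 4. In the NF-kB list the inhibitor and the factor moved apart: Nfkbia, which holds NF-kB in the cytoplasm, differed by -0.44 ± 0.09 (adjusted p = 0.00246) and Nfkb1, which encodes the p105 precursor of a subunit, by 0.39 ± 0.09 (adjusted p = 0.00744). For both genes the genotypes were called different in naive cells and not at 24 h.

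Several programmes that stimulation switches on are given next, beside 3.15% more positive and 2.95% more negative calls over all genes. At those shares lists of this size hold few calls, so their counts are not read as scarce. All 38 tested DNA replication genes and all 28 mitosis genes rose in both genotypes, where 41.4% of all genes rose in T1792delta/delta and 41.3% in wt, with 2 and 1 of them more positive and 1 and 0 more negative without the cluster. Over the 16 fits that left out a library the more positive count ran between 0 and 4 for replication and between 0 and 1 for mitosis, and it was 0 to 6 for the glycolysis and hypoxia genes given below. The median differences of the replication and mitosis lists were 0.15 and 0.19. All 28 ribosome biogenesis genes also rose in both genotypes, with 0 more positive and 2 more negative, and a median of -0.13. Of 28 glycolysis and hypoxia genes 1 was more positive, Pdk1 (0.54, adjusted p = 0.0279), which gave 136, 189, 122 and 113 CPM in T1792delta/delta 24 h libraries, against 122, 117, 110 and 118 CPM in wt 24 h libraries, and was not called in 5 of the 16 fits that left out a library, among them the fit without T1792delta/delta 24 h library 2. The glycolysis and hypoxia list had a median of 0.28. At 24 h itself 8 of its 28 genes were called higher in T1792delta/delta and 0 lower. For mitosis 5 of 28 were called higher at 24 h and for replication 3 of 38, with 0 lower in both, against 7.77% higher over all genes. For ribosome biogenesis 7 of 28 were called lower at 24 h, against 8.47% of all genes, and 0 higher. Of 26 amino acid and one-carbon genes 0 were called either way in the difference of the responses. Among 26 apoptosis genes 2 were more negative, Bcl2 and Bax, and 1 more positive. The negative count was 1 in 13 of the 16 fits that left out a library. The call of Bax (-0.40, adjusted p = 0.045) was lost with tied libraries (adjusted p = 0.064).

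**Figure D4:**
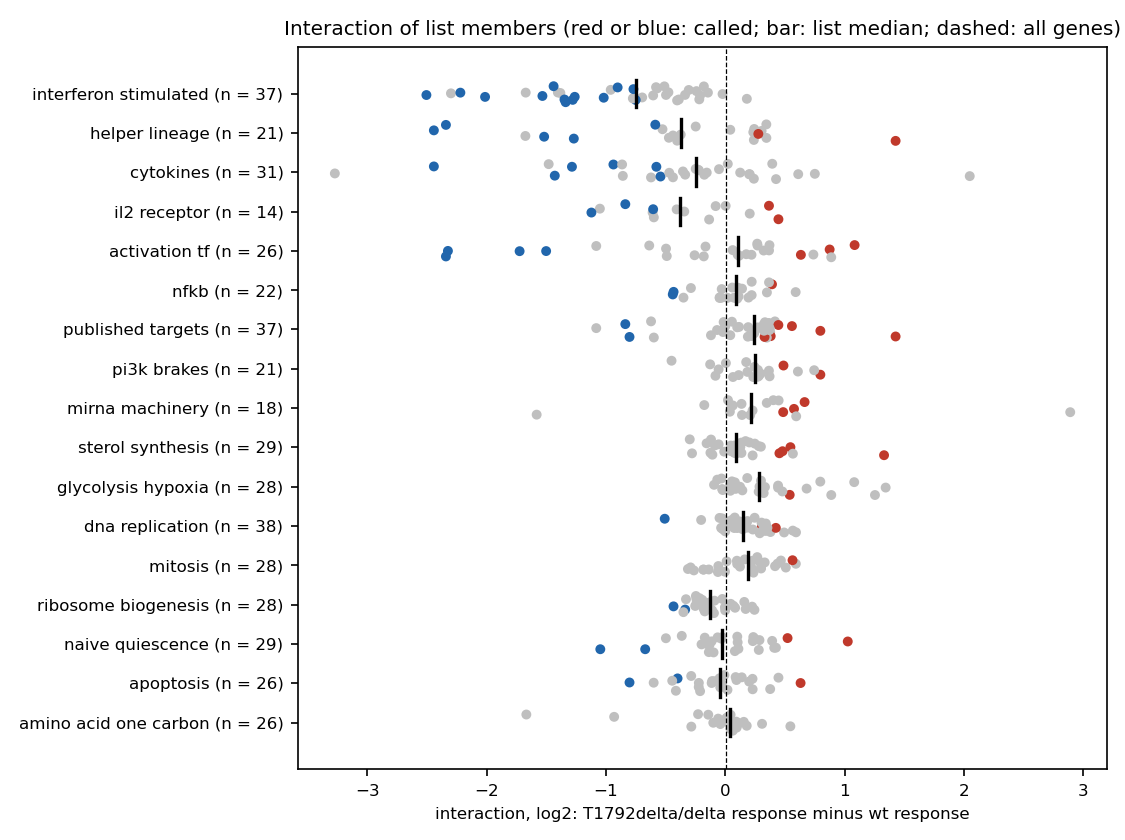
Difference of the responses (log2, horizontal axis) for the tested members of 17 gene lists, one row per list; red and blue points are members called more positive and more negative in T1792delta/delta, grey points were not called, the black bar is the list's median and the dashed line the median of all tested genes. The interferon-stimulated list has its median at -0.75 and 13 blue points. The medians are 0.15 for replication, 0.19 for mitosis, 0.28 for glycolysis and hypoxia and 0.043 for amino acid genes.

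Seed sites were counted in the longest annotated 3′ UTR of 12666 tested genes. The matches sought on the transcript strand were GCACTTT for miR-17/20a, GCACCTT for miR-18a, TTTGCAC for miR-19 and GTGCAAT for miR-92a, called 7mer sites, and the same letters followed by A, called 8mer sites; a run TTTGCACTTT holds a match of both miR-19 and miR-17/20a. A 7mer site of miR-17/20a was present in 14.2% of these UTRs, of miR-18a in 9.19%, of miR-19 in 12.8% and of miR-92a in 7.37%. Among all 12666 genes 3.34% were more positive and 2.98% more negative, with a median difference of 0.0043.

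Genes with sites had a higher median difference than all genes with a UTR in all 4 families. Of 559 genes with an 8mer site of miR-17/20a, 62 were more positive (11.1%) and 8 more negative (1.43%), with a median difference of 0.14. Of 347 genes with an 8mer site of miR-92a, 32 were more positive (9.22%) and 2 more negative, also with a median of 0.14. Of 725 genes with an 8mer site of miR-19, 47 were more positive (6.48%) and 23 more negative, with a median of 0.088, and of 208 genes with one of miR-18a, 10 were more positive (4.81%) and 1 more negative, with a median of 0.12. The shares called more positive were thus highest for miR-17/20a and miR-92a. With 7mer sites the medians were 0.10 for miR-17/20a, 0.064 for miR-18a, 0.086 for miR-19 and 0.12 for miR-92a. Genes without a 7mer site of any family numbered 8513, of which 192 were more positive (2.26%) and 287 more negative (3.37%), with a median of -0.032. A gene can stand in more than one class.

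The shares were taken in each state as well. At 24 h, 129 of the 559 genes with an 8mer site of miR-17/20a were higher in T1792delta/delta (23.1%) and 28 lower (5.01%), against 8.19% and 8.57% of all genes with a UTR. In naive cells 19 were higher (3.40%) and 12 lower (2.15%), against 2.87% and 2.49%. The other families differed from this in naive cells. With an 8mer site of miR-19, 38 of 725 genes were higher (5.24%) and 14 lower (1.93%). For miR-18a 4 of 208 were higher (1.92%) and 11 lower (5.29%), and for miR-92a 8 of 347 were higher and 8 lower (2.31% each). Genes with sites had longer UTRs, with a median of 2666 bases for 8mer sites of miR-17/20a against 1148 bases over all genes. Among UTRs above that median length, 113 of 1374 genes with an 8mer site of any family were more positive (8.22%), and 86 of 3061 genes without a 7mer site (2.81%). Among shorter UTRs the counts were 16 of 295 (5.42%) and 106 of 5452 (1.94%). The median differences also varied with length. They were 0.12 with an 8mer site and 0.031 without a 7mer site among longer UTRs, and 0.047 and -0.072 among shorter ones. Of the genes with the most negative differences described above, Tbx21, Ifng, Irgm1, Iigp1, Gbp2, Ly6a, Irf8 and Pim1 hold no 7mer site of the 4 families. The same is true of 67.2% of all genes with a UTR, and other genes that were more negative do hold sites. Il12rb2 and Il7r hold an 8mer site of miR-19, Ifit1 and Bcl2 a 7mer site of miR-17/20a and Eomes a 7mer site of miR-92a.

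**Figure D5:**
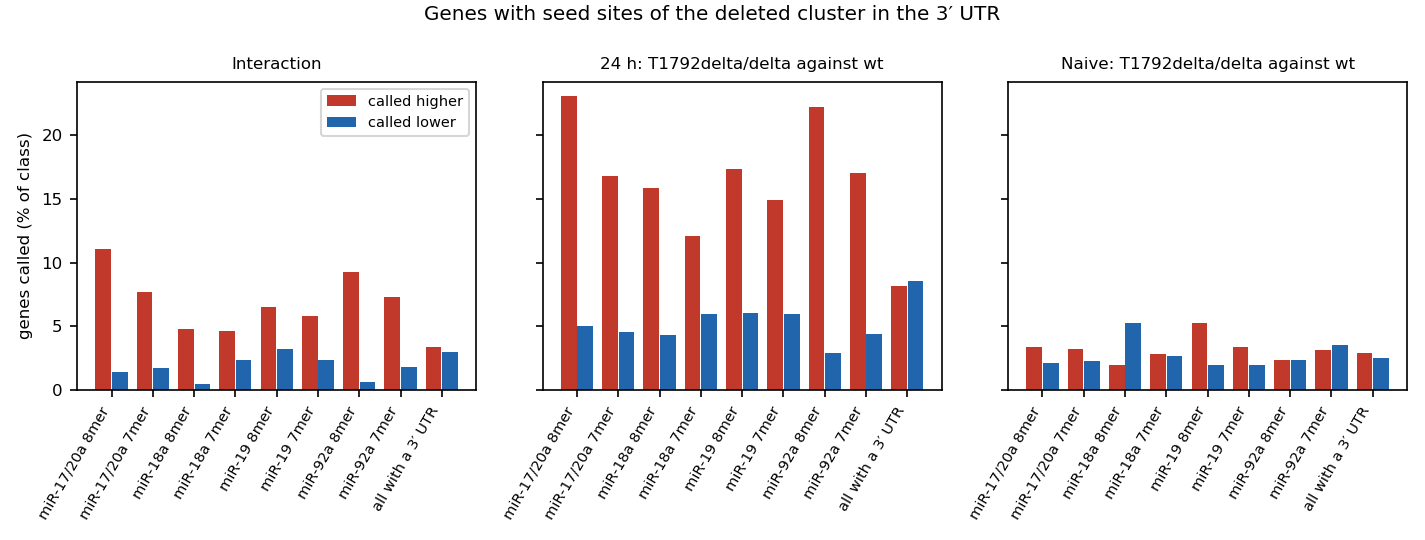
Share of genes called higher (red) and lower (blue) in T1792delta/delta, in percent of each class of genes with a seed site in the 3′ UTR, for the difference of the responses (left), 24 h cells (middle) and naive cells (right); the last pair of bars in each panel is all 12666 genes with a UTR. For 8mer sites of miR-17/20a the red bars stand at 11.1%, 23.1% and 3.40% from left to right.

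The series also holds mice in which CD4cre switches on a miR-17∼92 transgene placed behind a stop cassette in the Rosa26 locus (labelled T1792tg/tg, 4 libraries per state), and the corresponding difference of their response from that of wt uses the same 8 wt libraries. Both values are therefore given side by side for some of the genes described, and nothing is read from their likeness. For Tbx21 the difference was -2.34 in T1792delta/delta and -0.02 in T1792tg/tg (adjusted p = 0.99), and for Irgm1 it was -1.53 in T1792delta/delta and 0.40 in T1792tg/tg (adjusted p = 0.22). For Ifng it was -2.44 in T1792delta/delta and 1.48 in T1792tg/tg (adjusted p = 0.045), and for Il12rb2 it was -1.52 in T1792delta/delta and 1.14 in T1792tg/tg. For Lta it was -0.94 in T1792delta/delta and 0.83 in T1792tg/tg, and for Pim1 -1.12 in T1792delta/delta and 0.97 in T1792tg/tg. For Bcl2 it was -0.80 in T1792delta/delta and 0.59 in T1792tg/tg, and for Il7r -1.05 in T1792delta/delta and 1.65 in T1792tg/tg. The values of Ifng, Il12rb2, Lta, Pim1, Bcl2 and Il7r were called in both comparisons, with opposite signs. So were those of Igfbp7, Ccl3, Il4ra, Dhcr7, Tgtp2 and Prim2. Other genes were called in both with the same sign. Tnfsf4 was at -2.14 in T1792delta/delta and -2.38 in T1792tg/tg, Pim2 at -0.60 in both, and Drosha at 0.58 and 0.45. The same held for Nfkb1 (0.39 and 0.54), Nfkbia (-0.44 and -0.31), Tgfbr2 (0.38 and 0.52) and Cnot1 (0.48 and 0.40). For Gramd1b it was 1.01 in T1792delta/delta and -0.21 in T1792tg/tg (adjusted p = 0.21), and for Phlpp1 0.80 in T1792delta/delta and 0.52 in T1792tg/tg (adjusted p = 0.016). Of the 37 tested genes of the interferon-stimulated list, 1 was more positive and 1 more negative in T1792tg/tg. Over all 13650 tested genes 1173 were more positive and 1012 more negative in that comparison.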

How the data were processed

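The authors deposited raw counts as 1 table of 24028 genes, named by Entrez number, and 38 libraries. The submitters' processing notes name the build mm10 and the tools STAR 2.5.2a, FastQC 0.11.5, edgeR 3.24.3 and R 3.5; how reads were assigned to genes is not given in the sources used here. Per the labels' protocols, RNA of 250000 cells went into stranded TruSeq libraries read as single ends of 76 nt.

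Symbols came from a RefSeq table (GRCm38.p6), which matched 23968 identifiers; the others took 0.0771% of counts. Genes kept by filterByExpr over the 10 groups (13650) were scaled by TMM, fitted in all libraries with a coefficient per group, and tested two-sided by edgeR's quasi-likelihood F test (edgeR 4.0.16, R 4.3.3), with Benjamini-Hochberg adjustment over all tested genes and calls under 0.05. CPM uses the TMM-scaled sizes, and a standard error is the log2 value over the square root of F. The code was tested on simulated data.

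Within genotype, naive and 24 h libraries of the same title number deviated together over 9750 genes on log2(CPM + 1), with r of 0.32 to 0.50 in T1792delta/delta and 0.19 to 0.52 in wt. Libraries of unlike number gave r of -0.46 to 0.32 in T1792delta/delta and -0.31 to 0.25 in wt. The ranges overlap in both genotypes, so these values do not settle the pairing. In T1792delta/delta the overlap is narrow, with r of 0.318 for a pair of unlike number and 0.315 for a pair of the same number. The main fit did not use pairing. A blocked fit tied same-numbered libraries within genotype, and its value is printed beside results it changes. Labels state separate mice per naive preparation, and nothing ties numbers across genotypes. All 24 pairs of libraries within a group differed by more than sampling noise (chi-square per degree of freedom of 5.84 to 48.0). Separate preparations from 1 mouse can also differ in this way, so the check cannot show that the libraries came from separate mice. Each library was counted as 1 replicate.

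Named genes were the 12 largest increases and decreases averaging 5 CPM or more in a group, the smallest p-values, the engineered locus and up to 4 members per list with the smallest p. Gh, Gata3, Cxcr3, Klrd1, Prf1, Igtp, Bcl2l11, Il2, Egr2, Maf, Ifit3 and Socs1 were named as list members after their values were seen. A few genes are not reported here. The comparison, the lists and the members were chosen with earlier results of these data known. Seed sites were sought in the longest 3′ UTR (at least 30 bases) of GENCODE M21 transcripts. Alternatives were RLE factors, DESeq2 1.42.0, other filters, the 16 libraries alone, replicate blocks, a sex term, female libraries alone and leaving out each library.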

Additional observations from a re-analysis of the deposited data

Results flagged for a closer look

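Sets of 4 libraries were examined for a part of the named genes, each in every group. In 18 of the 232 sets, 1 library stood apart from the other 3 of its group by Dixon's criterion, which chance meets in about 1 in 20 such sets. Of these, 5 were in T1792delta/delta 24 h library 2, with 22.3 CPM for Ppp1r3b, 20.4 CPM for P4ha2, 3.41 CPM for Klf4, 9.09 CPM for Il7r and 122 CPM for Drosha. T1792delta/delta 24 h library 4 stood apart for Stard4 with 68.0 CPM. In wt 24 h cells, library 2 stood apart for Irgm1 with 359 CPM and for Abca1 with 0.907 CPM, and library 4 for E2f1 with 84.3 CPM and for Drosha with 127 CPM. In T1792delta/delta naive cells the values were 26.7 CPM for Irf8 in library 1, 15.8 CPM for Stard4 in library 3 and 322 CPM for Bcl2 in library 4. In wt naive cells they were 459 CPM for Pim1 in library 2, 9.29 CPM for Eomes and 30.7 CPM for Rora in library 3, and 34.5 CPM for Iigp1 and 108 CPM for Tgtp2 in library 4, the library with the highest sum of immediate early and heat shock genes.

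For 36 genes the response was called in opposite directions in the 2 genotypes, and the difference was called as well. Of these, 16 fell in T1792delta/delta and rose in wt, including Ly6a, the chemokine gene Cxcl10 (-0.99 in T1792delta/delta and 1.05 in wt), the immunity-related GTPase gene Irgm2 (-0.32 in T1792delta/delta and 0.76 in wt) and the immunoproteasome subunits Psmb8 (-0.21 in T1792delta/delta and 0.32 in wt) and Psmb9 (-0.29 in T1792delta/delta and 0.22 in wt). The other 20 rose in T1792delta/delta and fell in wt, including Mir17hg, Igfbp7, Srebf1, Jak3 and the DNA helicase gene Helb (0.32 in T1792delta/delta and -0.47 in wt).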

How the results depend on the processing

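Calls in the difference of the responses numbered 833 (430 more positive, 403 more negative). With the replicate block within genotype they were 727 (361 and 366), and with the replicate number as a block over all groups 761. With female libraries alone they were 141 (68 more positive, 73 more negative), a fit with 2 T1792delta/delta and 3 wt libraries per state. Leaving out 1 library gave 443 to 1007 (235 to 501 more positive, 208 to 506 more negative). The same gave 11383 to 11504 called responses in T1792delta/delta (5543 to 5590 higher, 5821 to 5928 lower) and 11407 to 11462 in wt (5537 to 5580 higher, 5857 to 5893 lower). It gave 439 to 786 naive differences (247 to 408 higher, 192 to 378 lower) and 1388 to 2278 differences at 24 h (715 to 1081 higher, 673 to 1197 lower). The other alternatives kept these counts within 1.5 times, and none of the named genes looked up in them, a part of all those named, changed sign. Median differences of the seed classes were 0.141, 0.119 and 0.142 with 8mer in place of 7mer sites for miR-17/20a, miR-18a and miR-92a. Leaving out 1 library, which was added after seeing the data, gave 7mer medians of 0.0888 to 0.114 for miR-17/20a, 0.0566 to 0.0792 for miR-18a, 0.0735 to 0.0941 for miR-19 and 0.0939 to 0.128 for miR-92a. The cause of these shifts was not tested. Block calls lost among named genes are given beside them; Mcm4 and Prim2 were also lost (adjusted p = 0.06 and 0.074). Genes under 1 CPM, such as the cluster's hairpins, rest on few reads.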
